A study of Mus musculus with 6 samples.

Results

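The insulin-like growth factor system was followed through 10 genes, taken by symbol from the 55483 features of each library: the ligands Igf1 and Igf2, the receptors Igf1r and Igf2r, and the binding proteins Igfbp2, Igfbp3, Igfbp4, Igfbp5, Igfbp6 and Igfbp7. All 10 were found and all 10 passed the filter on low values. The libraries came from whole oviducts of female mice, aged 6 to 8 weeks at mating, that were killed on gestational day 3, with the day of the vaginal plug as day 1. There were 3 libraries labelled Mettl3 f/f and 3 labelled Mettl3 d/d. The protein Mettl3 is the methyltransferase that writes N6-methyladenosine (m6A) on RNA. In common usage f/f denotes an allele flanked by loxP sites and d/d its deleted form. The sources used here do not give the deleted exons, the driver of the recombinase or the strain, nor say whether each library came from 1 animal. The p-values therefore measure the spread between these libraries, which may be technical.

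Insulin-like growth factors 1 and 2 are secreted peptides related to insulin. Both signal through the receptor tyrosine kinase encoded by Igf1r, which acts through insulin receptor substrates, phosphoinositide 3-kinase and AKT, while Igf2r encodes a receptor that takes up insulin-like growth factor 2 and carries it to the lysosome. Secreted binding proteins hold the ligands outside the cell and can limit or extend their action. In the female reproductive tract the family is known as a steroid-regulated growth factor system, and the ligands act on the early embryo.

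The 3 binding protein genes that differed between genotypes are shown here by the sequence before their transcription start, because 2 of them are neighbours in the genome and all 3 fell together. Igfbp4, which did not pass the test, is shown for comparison. Sequences are from RefSeq (GRCm38.p6), 5′ to 3′ on the strand of the gene, and end at the base before the annotated start. RefSeq lists 2 starts for Igfbp2, of which the first is shown. The last 19 bases of the Igfbp5 window lie in an exon of GENCODE release M21 and are not printed. The windows of Igfbp2 and Igfbp6 end upstream of the GENCODE gene starts, that of Igfbp6 at base 102144185 against a start at 102144362. The bases in between were not searched for motifs. Capitals mark every match, on either strand, to the motifs TATAAA (the TATA box), CCAAT (the box bound by NF-Y), GGGCGG (the GC box), AGAACA (the core of the progesterone and glucocorticoid receptor element), AGGTCA (the core of the estrogen receptor element) and TGACTCA (the AP-1 motif).
Igfbp2 (chr1:72824230-72824479, plus strand): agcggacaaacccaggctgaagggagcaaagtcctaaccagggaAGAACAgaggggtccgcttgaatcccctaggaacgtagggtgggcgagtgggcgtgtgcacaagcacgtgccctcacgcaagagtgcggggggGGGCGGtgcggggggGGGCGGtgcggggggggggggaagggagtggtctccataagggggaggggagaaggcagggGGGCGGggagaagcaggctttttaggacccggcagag
Igfbp5 (chr1:72874885-72875115, minus strand): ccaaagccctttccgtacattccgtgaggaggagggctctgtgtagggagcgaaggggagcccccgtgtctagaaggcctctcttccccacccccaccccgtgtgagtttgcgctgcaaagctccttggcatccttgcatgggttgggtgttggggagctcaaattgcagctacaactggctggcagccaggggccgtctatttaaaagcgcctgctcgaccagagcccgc
Igfbp6 (chr15:102143936-102144185, plus strand): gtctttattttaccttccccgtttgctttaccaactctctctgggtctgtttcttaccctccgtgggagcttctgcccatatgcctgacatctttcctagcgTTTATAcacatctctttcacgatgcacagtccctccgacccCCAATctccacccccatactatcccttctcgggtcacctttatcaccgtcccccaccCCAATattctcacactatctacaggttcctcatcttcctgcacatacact
Igfbp4 (chr11:99040994-99041243, plus strand): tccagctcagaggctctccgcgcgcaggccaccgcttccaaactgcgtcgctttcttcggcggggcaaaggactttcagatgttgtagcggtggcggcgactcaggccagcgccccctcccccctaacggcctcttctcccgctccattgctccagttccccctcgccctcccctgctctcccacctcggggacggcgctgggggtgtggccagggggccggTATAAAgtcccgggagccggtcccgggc

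No 2 of the 3 genes shared any of these motifs in the windows searched, and shared regulation was not tested. Igfbp2 held GGGCGG at 3 positions (from -113, -98 and -37 relative to the RefSeq start) and AGAACA from -206 to -201. The window of its second start, not printed, held a TGACTCA match on the minus strand from -39 to -33. Igfbp6 held CCAAT from -107 and from -50 and a TATAAA match on the minus strand from -148. Igfbp5 held none of the 6 motifs in its 250 bases, which says only that these letters are not in the window. Igfbp4 held TATAAA from -28 to -23. No 2 matches overlapped in these 4 windows. Of 32851 RefSeq windows of the same 250 bases, 12.4% held the TATA box, 33.8% the CCAAT box, 32.7% the GC box, 16.1% the progesterone receptor core, 14.0% the estrogen receptor core and 4.46% the AP-1 motif, on either strand. The share of G and C was 67.2% for Igfbp2, 58.8% for Igfbp5, 49.6% for Igfbp6 and 69.2% for Igfbp4, against a median of 52.4% over all windows.

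The unit is not stated with the values, which were read as FPKM, fragment numbers scaled by transcript length and library size, so that levels of different genes can be compared. Where the libraries of a group are listed they stand in the order of replicates 1, 2 and 3. The 6 libraries held an implied 16500000 to 17900000 fragments each, read from the spacing of the lowest values. Mettl3 itself was higher, not lower, in libraries labelled d/d, at 11.8, 12.1 and 13.2 FPKM in the f/f libraries against 19.8, 20.3 and 24.5 in the d/d libraries, so a value per gene did not verify the genotype labels on which each direction here rests. The replicate 1 libraries held the lowest Hoxa10 of their groups. This gene marks the end of the tract nearest the uterus. It was at 3.48, 26.5 and 25.1 FPKM in the f/f libraries against 4.24, 9.47 and 12.4 in the d/d libraries. The summed FPKM of 8 smooth muscle markers was 2191, 5177 and 5293 in the f/f libraries against 4486, 2742 and 3605 in the d/d libraries. Replicate 1 was thus the lowest in f/f and the highest in d/d. The replicate 1 libraries were alike in Hoxa10 but not in this sum. Ovarian steroidogenic markers were summed at 37.6 FPKM in f/f replicate 3 and between 6.28 and 8.33 in the other libraries, and adipocyte markers at 64.5 in f/f replicate 1 and at most 12.7 elsewhere. For the 10 genes, results are given with and without the replicate 1 libraries where this changes a call or a direction. The calls of the markers and of most pathway genes were not followed in this way.

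In the libraries labelled d/d, 3 of the 10 genes fell and 0 rose: Igfbp6, Igfbp5 and Igfbp2, by 2.06-fold to 2.54-fold. The count was 0 with f/f replicate 2 left out and 1 with d/d replicate 3 left out, with all 3 genes still lower in d/d. Over all 15438 features tested, 4.97% were called lower and 6.04% higher (limma, Benjamini-Hochberg adjusted p under 0.05). At an unadjusted p under 0.05, 5 of the 10 were lower and 0 higher, where 14.2% and 15.4% of all features were. The f/f and d/d values of 5 of the 10 did not overlap, all lower in d/d, against 17.4% of all features not overlapping and lower and 18.1% not overlapping and higher. The median log2 difference of the 10 genes was -0.39, against -0.01 over all features tested.

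**Figure D1:**
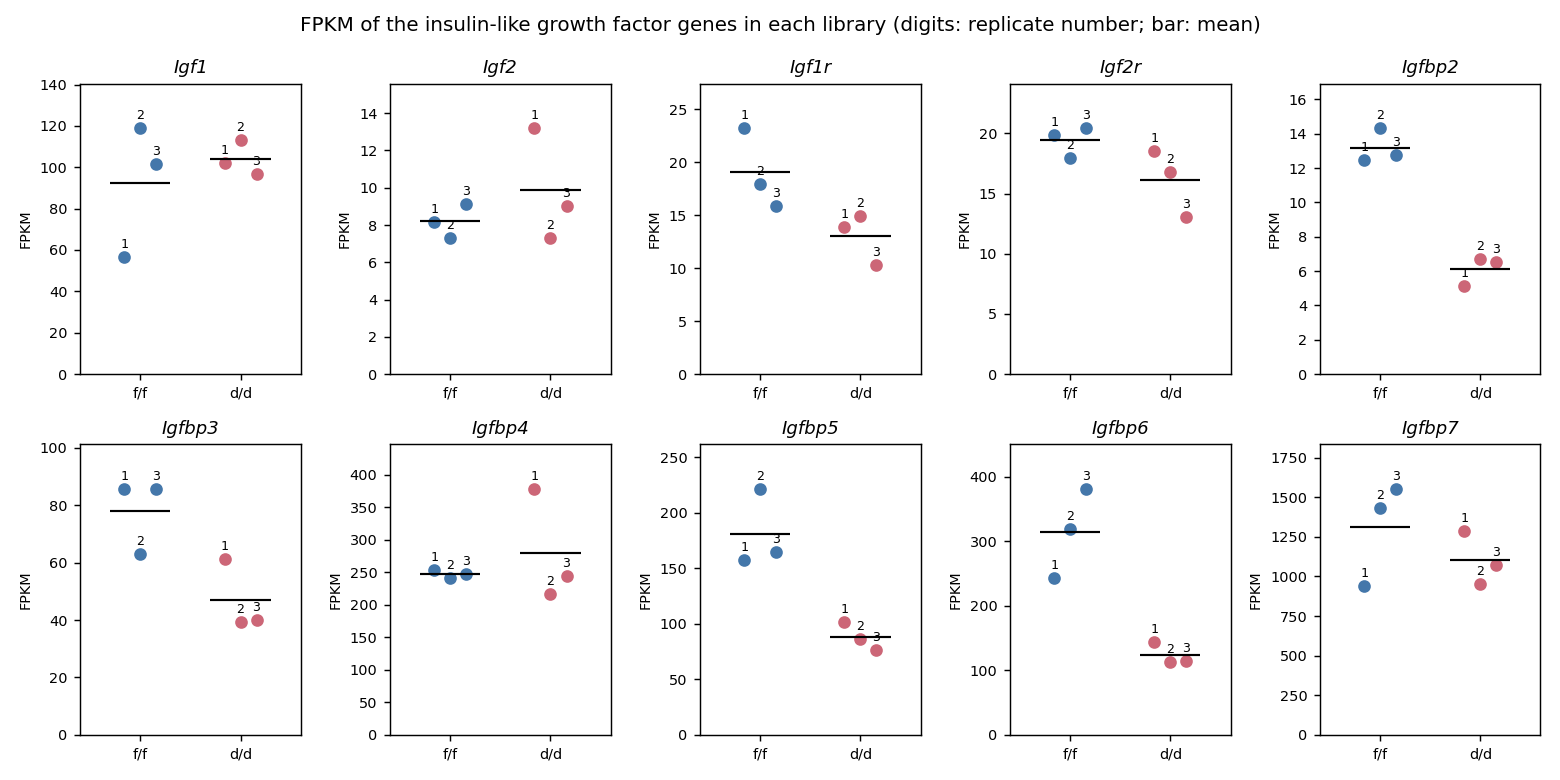
FPKM (linear axes from 0) of each of the 10 genes in the 3 f/f libraries (blue) and the 3 d/d libraries (red), with the replicate number beside each point and a bar at the group mean. The groups of Igf1r, Igfbp2, Igfbp3, Igfbp5 and Igfbp6 do not overlap, and Igf1 is lowest in f/f replicate 1.

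Neither ligand gene passed the threshold. Igf1, the ligand regulated by growth hormone in liver and made locally in many tissues, was at 56.5, 119 and 101 FPKM in the f/f libraries against 102, 113 and 96.6 in the d/d libraries. The groups overlapped, and the low value was that of f/f replicate 1. The means were 92.3 ± 32.2 and 104 ± 8.37 FPKM (SD, n = 3 each), with a log2 difference of 0.23 (95% interval -0.40 to 0.86, limma adjusted p = 0.598). Without f/f replicate 1 the difference was -0.08 (limma adjusted p = 0.699). Igf2, an imprinted fetal growth factor, was an order lower, at 8.18, 7.30 and 9.15 FPKM in the f/f libraries against 13.2, 7.32 and 9.04 in the d/d libraries. The highest value was that of d/d replicate 1, and the other d/d libraries lay within the f/f range. Its log2 difference was 0.21 (95% interval -0.30 to 0.71, limma adjusted p = 0.553), and -0.01 without d/d replicate 1. Igf1 exceeded Igf2 in all 6 libraries, by 6.91 to 16.3 times in f/f and 7.72 to 15.4 times in d/d. Of the 5723 exonic bases of Igf2, 3596 are also annotated to Gm49394 on the same strand, which was listed at 0 in 5 libraries and at 0.0388 FPKM in d/d replicate 2.

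The receptor genes were close to each other in level. Igf1r, the signalling receptor, was at 23.2, 18.0 and 15.9 FPKM in the f/f libraries against 13.9, 14.9 and 10.3 in the d/d libraries. Every d/d value was below every f/f value, by a margin smaller than the spread within either group. The means were 19.05 ± 3.78 and 13.1 ± 2.44 FPKM (SD, n = 3 each), and the log2 difference of -0.51 (95% interval -0.96 to -0.06) did not pass the threshold (limma adjusted p = 0.130). Igf2r, the clearance receptor, was at 19.9, 17.9 and 20.5 FPKM in the f/f libraries against 18.6, 16.8 and 13.1 in the d/d libraries. The groups overlapped, and its log2 difference was -0.26 (95% interval -0.61 to 0.08, limma adjusted p = 0.278). The ratio of Igf1r to Igf2r FPKM lay between 0.778 and 1.17 in f/f and between 0.749 and 0.889 in d/d.

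Igfbp6 fell furthest of the 10. It encodes a binding protein with a marked preference for insulin-like growth factor 2. Its gene (ENSMUSG00000023046) spans chr15:102144362-102149511 on the plus strand of GRCm38. It was at 243, 320 and 382 FPKM in the f/f libraries against 144, 114 and 114 in the d/d libraries. The groups did not overlap, and within f/f the low library was replicate 1. The means were 315 ± 69.6 and 124 ± 17.3 FPKM (SD, n = 3 each), a level 2.54-fold lower in d/d (log2 difference -1.32, SE 0.19, limma adjusted p = 0.0119). The call was lost on leaving out f/f replicate 2 (limma adjusted p = 0.0598) or the third d/d library (0.0517), with log2 differences of -1.30 and -1.27, and was kept without both replicate 1 libraries.

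Igfbp5 and Igfbp2 are adjacent genes that point at each other. Igfbp2 (ENSMUSG00000039323; chr1:72824503-72852474, plus strand) and Igfbp5 (ENSMUSG00000026185; chr1:72857932-72874884, minus strand) leave 5457 bases between their 3' ends, with 0 other genes annotated there. Igfbp5, a matrix-associated binding protein of stromal and muscle cells, was at 158, 222 and 164 FPKM in the f/f libraries against 102, 86.6 and 76.1 in the d/d libraries. All d/d libraries were below all f/f libraries, and the f/f group was drawn up by replicate 2. The level was 2.06-fold lower in d/d, with means of 181 ± 35.1 and 88.1 ± 12.8 FPKM (SD, n = 3 each; log2 difference -1.02, SE 0.17, limma adjusted p = 0.0162). This call was lost on leaving out f/f replicate 2 (limma adjusted p = 0.0582) or 3 (0.0512), or d/d replicate 2 (0.0618) or 3 (0.0606), and the log2 difference lay between -1.13 and -0.87 over the 6 fits that left out 1 library.

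Igfbp2, a binding protein that carries an integrin-binding motif, was at 12.5, 14.3 and 12.8 FPKM in the f/f libraries against 5.12, 6.72 and 6.52 in the d/d libraries. The libraries of each group lay close together and far from the other group. The means were 13.2 ± 1.00 and 6.12 ± 0.870 FPKM (SD, n = 3 each), 2.16-fold lower in d/d (log2 difference -1.0, SE 0.14, limma adjusted p = 0.0106). Without f/f replicate 2 it was 2.06-fold lower and missed the threshold (limma adjusted p = 0.0598). In bulk tissue, fewer cells of the type that makes a transcript and less of it per cell cannot be told apart, which applies to each of these falls.

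Igfbp3, the main carrier of the ligands in blood, was at 85.7, 62.9 and 85.6 FPKM in the f/f libraries against 61.3, 39.2 and 39.9 in the d/d libraries. The groups were separated only by the gap from f/f replicate 2 down to d/d replicate 1. The means were 78.1 ± 13.2 and 46.8 ± 12.6 FPKM (SD, n = 3 each), and the log2 difference of -0.74 (95% interval -1.24 to -0.24) missed the threshold (limma adjusted p = 0.0695). It passed without d/d replicate 1 (log2 difference -0.95, limma adjusted p = 0.0395) but not without both replicate 1 libraries (-0.88, 0.0526).

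Igfbp4 and Igfbp7 did not pass the threshold. Igfbp4, which inhibits the ligands until the protease pappalysin cuts it, was at 253, 242 and 247 FPKM in the f/f libraries against 379, 216 and 244 in the d/d libraries. The d/d libraries surrounded the tight f/f group, and d/d replicate 1 was the high one. Its log2 difference was 0.14 (95% interval -0.36 to 0.63, limma adjusted p = 0.708), and -0.10 without d/d replicate 1. Igfbp7, a related protein of vessel walls and stroma that binds the ligands weakly, was at 941, 1435 and 1554 FPKM in the f/f libraries against 1284, 949.8 and 1075 in the d/d libraries. The d/d values lay between f/f replicate 1, the lowest of the 6, and the other f/f libraries. The log2 difference was -0.23 (95% interval -0.79 to 0.34, limma adjusted p = 0.563). It was -0.45 without f/f replicate 1 (limma adjusted p = 0.202) and -0.56 without both replicate 1 libraries (0.166), still short of the threshold. Of its 1209 exonic bases, 85 are shared with Polr2b on the other strand.

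**Figure D2:**
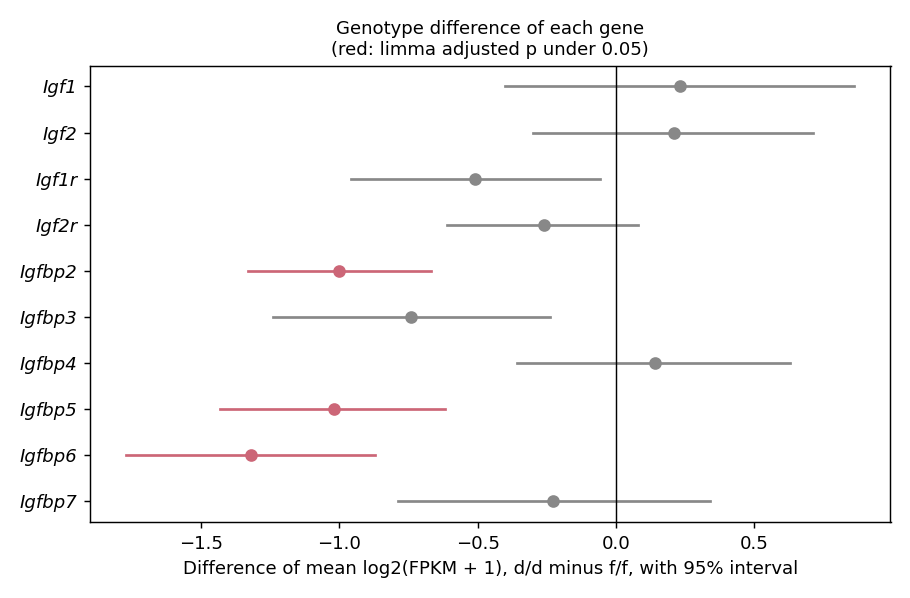
Mean log2(FPKM + 1) in d/d less that in f/f for each of the 10 genes (points) with its 95% interval from limma (lines), in red where the adjusted p was under 0.05. Igfbp6 (-1.32), Igfbp5 (-1.02) and Igfbp2 (-1.0) are red, and the intervals of Igfbp3 and Igf1r lie below 0 without passing the adjusted threshold.

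**Figure D3:**
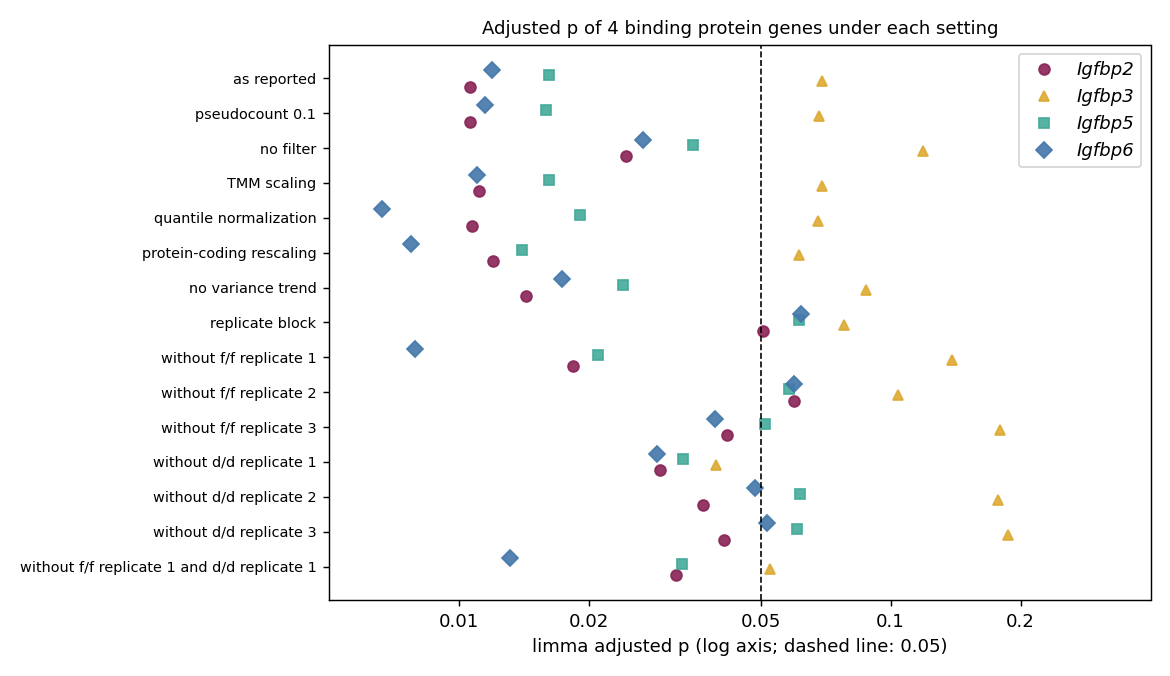
limma adjusted p (log axis) of Igfbp2, Igfbp3, Igfbp5 and Igfbp6 as reported and under each of 14 other settings, with a dashed line at 0.05. Igfbp2 is left of the line in 12 of the 14, Igfbp6 in 11, Igfbp5 in 9 and Igfbp3 in 1, and without f/f replicate 2 all 4 are right of it.

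The order of the levels differed between the genotypes. In f/f the order of mean FPKM was Igfbp7, Igfbp6, Igfbp4, Igfbp5, Igf1, Igfbp3, Igf2r, Igf1r, Igfbp2 and Igf2. The ranges of Igfbp6 and Igfbp4, of Igf1 and Igfbp3, and of Igf2r and Igf1r overlapped, and those of the other neighbours did not. In d/d the order was Igfbp7, Igfbp4, Igfbp6, Igf1, Igfbp5, Igfbp3, Igf2r, Igf1r, Igf2 and Igfbp2, with overlapping ranges for Igf1 and Igfbp5, Igf2r and Igf1r, and Igf1r and Igf2. Igfbp2 was above Igf2 in 3 of 3 f/f libraries and below it in 3 of 3 d/d libraries. Igfbp6 was above Igfbp4 in 2 of 3 f/f libraries and below it in 3 of 3 d/d libraries. In f/f, Igfbp7 was above 99.7% of all features tested and Igf2 above 37.3%.

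The summed FPKM of Igfbp2 to Igfbp7 was 1693, 2295 and 2445 in the f/f libraries against 1975, 1412 and 1556 in the d/d libraries. The groups overlapped only through f/f replicate 1, and the other f/f libraries lay above all d/d libraries. Igfbp7, which binds the ligands weakly, made up 55.6% to 69.1% of that sum and was left out of the sums that follow. Among Igfbp2 to Igfbp6, the share held by Igfbp4 was larger in d/d. Their summed FPKM was 752, 860 and 891 in the f/f libraries against 691, 462 and 481 in the d/d libraries. The groups did not overlap, and d/d replicate 1 was the nearest to f/f. Igfbp6 made up 32.3% to 42.8% of this sum in f/f and 20.8% to 24.6% in d/d, while Igfbp4 made up 27.7% to 33.7% and 46.8% to 54.8%. The sum divided by that of Igf1 and Igf2 was 11.6, 6.81 and 8.06 in the f/f libraries against 5.99, 3.84 and 4.56 in the d/d libraries. The d/d ratios were all below the f/f ratios, and the highest, in f/f replicate 1, is the library with the lowest Igf1. These sums were formed after the values of single genes were seen and carry no test.

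**Figure D4:**
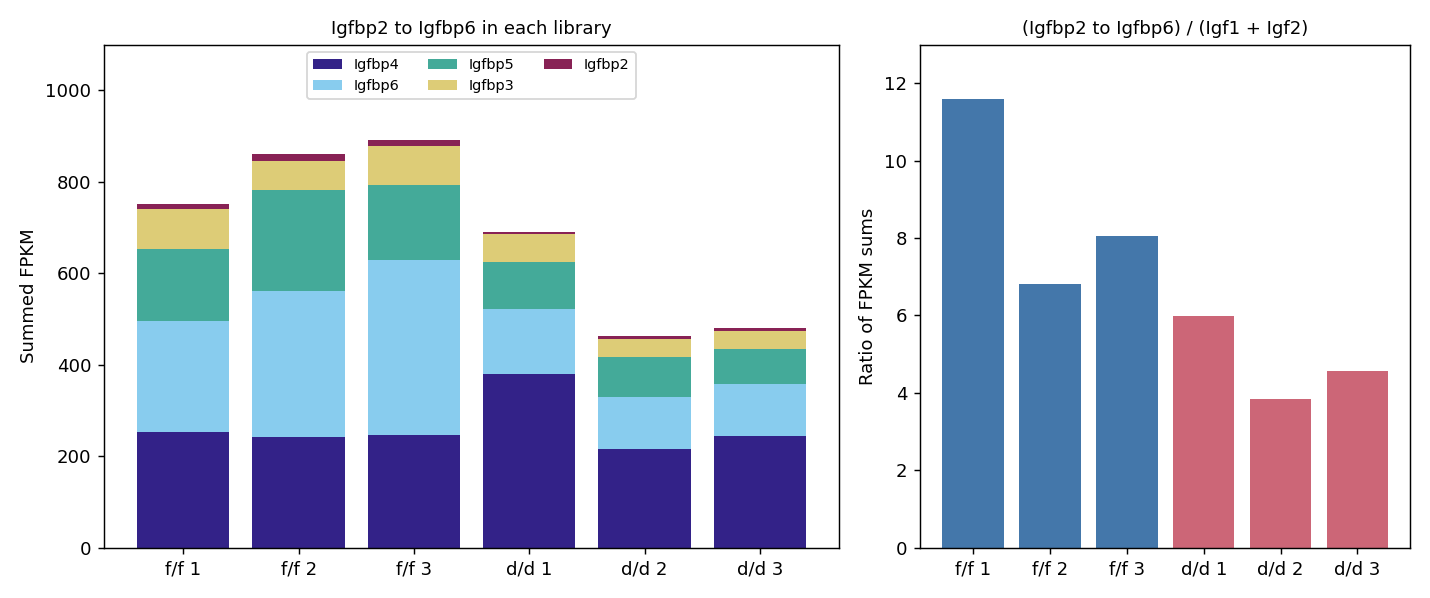
Left, summed FPKM of Igfbp2 to Igfbp6 in each library, as stacked bars by gene. Right, that sum divided by the sum of Igf1 and Igf2 FPKM in the f/f (blue) and d/d (red) libraries. The light blue Igfbp6 part shrinks from 243 to 382 FPKM in f/f to 114 to 144 in d/d, and the ratio lies between 6.81 and 11.6 in f/f and between 3.84 and 5.99 in d/d.

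Some pairs of the 10 genes varied more alike across the libraries than others. Likeness was measured as the root mean square difference between profiles of log2(FPKM + 1) over the 6 libraries, each centred on its own mean. Of the 45 pairs, Igf1 and Igfbp6 were the least alike (0.814). Igf2 and Igfbp4 were the closest (0.0933), both highest in d/d replicate 1. The imprinted noncoding RNA H19, which shares a control region with Igf2, was also highest there, at 11.2 FPKM against 1.26 to 5.38 in the other 5 libraries, and so was the summed FPKM of 8 endothelial markers (409 against 246 to 309). The summed FPKM of 8 macrophage markers (1259) and the total FPKM of the library (751618) were also highest in d/d replicate 1. The sums of the other marker lists were highest in other libraries. The part of cell type content or library total in these values was not tested. The next closest pairs were Igf1r with Igf2r (0.216), Igfbp2 with its neighbour Igfbp5 (0.237) and Igfbp5 with Igfbp6 (0.267). Igfbp2, Igfbp5 and Igfbp6 were all called lower, and a shared fall by itself brings profiles closer. Among 8217 other features with a mean of at least 10 FPKM, the 3 nearest to Igfbp2 were Hspa2, Slc38a1 and Fitm2 (0.0705 to 0.123, where the median feature was at 0.547). Those nearest to Igfbp5 were Ralgps2, Peg13 and Bche (0.110 to 0.132, median 0.578). Those nearest to Igfbp6 were P4ha2, Socs7 and Hs3st1 (0.0924 to 0.104, median 0.714).

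The coding transcripts of the 10 genes differed widely in the core motif within which m6A is most often found, GGACT in DNA letters. The longest coding transcript of Igfbp2 in GENCODE M21 (1307 bases) held 0 copies, and that of Igfbp6 (1112 bases) held 3, or 2.70 per kilobase, more than 96.3% of 13358 tested coding genes. Igfbp5 held 7 copies (1.17 per kilobase) and Igfbp4 held 6 (1.57 per kilobase), where the median gene had 1.06 per kilobase. The ligands were poor in it, with 2 copies each (0.284 per kilobase for Igf1 and 0.424 for Igf2). Of the 3 genes that fell, Igfbp2 and Igfbp6 thus lay at opposite ends of this scale and Igfbp5 near its middle. The places of Igfbp2 and Igfbp6 rest on 0 and 3 copies in short transcripts, where a single copy shifts the density markedly. Methylation of these transcripts was not measured in these libraries, and a copy of the motif is not a modified site.

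Of the other genes of the pathway, 44 of 56 listed passed the filter on low values, and 4 were called higher and 3 lower in d/d (limma), where 6.04% and 4.97% of all features were. Among family genes outside the 10, 5 of 13 were tested, and 1 rose and 0 fell, with 1 lower at an unadjusted p under 0.05 (Igf2bp2, an RNA-binding protein gene, named after its values were seen). Igfals, which encodes the acid-labile subunit that joins Igfbp3 and ligand in the complex carried in blood, was at 0.281, 0.218 and 0.324 FPKM in the f/f libraries against 8.55, 2.15 and 4.40 in the d/d libraries. It passed the filter on low values only through the d/d libraries, so a difference between the groups was built into its being tested. Each d/d value was several times the highest f/f value, and the d/d libraries differed widely among themselves. The mean was 18.3-fold higher in d/d (log2 difference 2.10, SE 0.40, limma adjusted p = 0.0231) and 11.9-fold higher without d/d replicate 1. The call was lost on leaving out f/f replicate 2 (limma adjusted p = 0.0919) or 3 (0.0743), or d/d replicate 3 (0.0772). Insr, the insulin receptor gene, averaged 18.95 ± 2.06 FPKM in f/f libraries against 22.7 ± 3.59 in d/d libraries (SD, n = 3 each; limma adjusted p = 0.308), and Igfbp1, Ins1 and Ins2 were each listed at 0 in at least 5 of 6 libraries.

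Of 7 tested proteases of the binding proteins and inhibitors of those proteases, 1 rose and 0 fell, also 0 lower at an unadjusted p under 0.05. Over all features, 6.04% rose and 4.97% fell, and 14.2% were lower at the unadjusted threshold. Adam28, a metalloprotease reported to cut Igfbp3, was at 4.96, 2.45 and 2.37 FPKM in the f/f libraries against 9.95, 8.23 and 6.61 in the d/d libraries. The groups did not overlap, and the call (log2 difference 1.16, SE 0.27, limma adjusted p = 0.0405) was lost without any 1 library other than f/f replicate 1 (limma adjusted p from 0.0794 to 0.138), without the filter on low values (0.0838) and with rescaling to protein-coding genes (0.0544). Pappa, the pappalysin that cuts Igfbp4, averaged 1.47 ± 0.277 FPKM in f/f libraries against 1.14 ± 0.116 in d/d libraries (SD, n = 3 each; limma adjusted p = 0.550). Ctsd, a lysosomal protease named here after its values were seen, was at 348, 1675 and 1692 FPKM in the f/f libraries against 427, 341 and 362 in the d/d libraries. Only f/f replicate 1 lay within the d/d range, and the difference did not pass the threshold (limma adjusted p = 0.171).

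Of 32 tested genes of receptor signalling, 2 rose and 3 fell, where 6.04% and 4.97% of all features did. The median log2 difference of the 32 genes was -0.11. At an unadjusted p under 0.05, 9 were lower and 2 higher, and the groups did not overlap for 8 that were lower and 4 that were higher, where 14.2% and 15.4% of all features passed the unadjusted threshold and 17.4% and 18.1% did not overlap. Pik3r1, the regulatory subunit of phosphoinositide 3-kinase, was at 80.9, 91.7 and 90.7 FPKM in the f/f libraries against 54.0, 48.1 and 43.1 in the d/d libraries, 1.81-fold lower in d/d (limma adjusted p = 0.0105). Pdpk1, the kinase that activates AKT (1.55-fold; outside the naming rule), and the transcription factor gene Foxo4 (1.75-fold) were the others that fell. All d/d libraries were below all f/f libraries in these 3 genes. Eif4ebp1, a translation repressor acted on by mTOR, rose 2.04-fold (13.6 ± 2.28 FPKM in f/f libraries, 27.8 ± 5.38 in d/d libraries; SD, n = 3 each; limma adjusted p = 0.0202), and Foxo1, a transcription factor restrained by AKT, 1.62-fold (limma adjusted p = 0.0300). The Foxo1 call held without f/f replicate 1 and was lost without any other single library (limma adjusted p from 0.0746 to 0.116), without the filter on low values (0.0516) and with rescaling to protein-coding genes (0.0571). Those of Pik3r1 (0.0571), Foxo4 (0.0582) and Eif4ebp1 (0.0880) were lost without f/f replicate 2. Eif4ebp1 also lost its call without d/d replicate 3 (limma adjusted p = 0.0656) or without both replicate 1 libraries (0.0542).

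**Figure D5:**
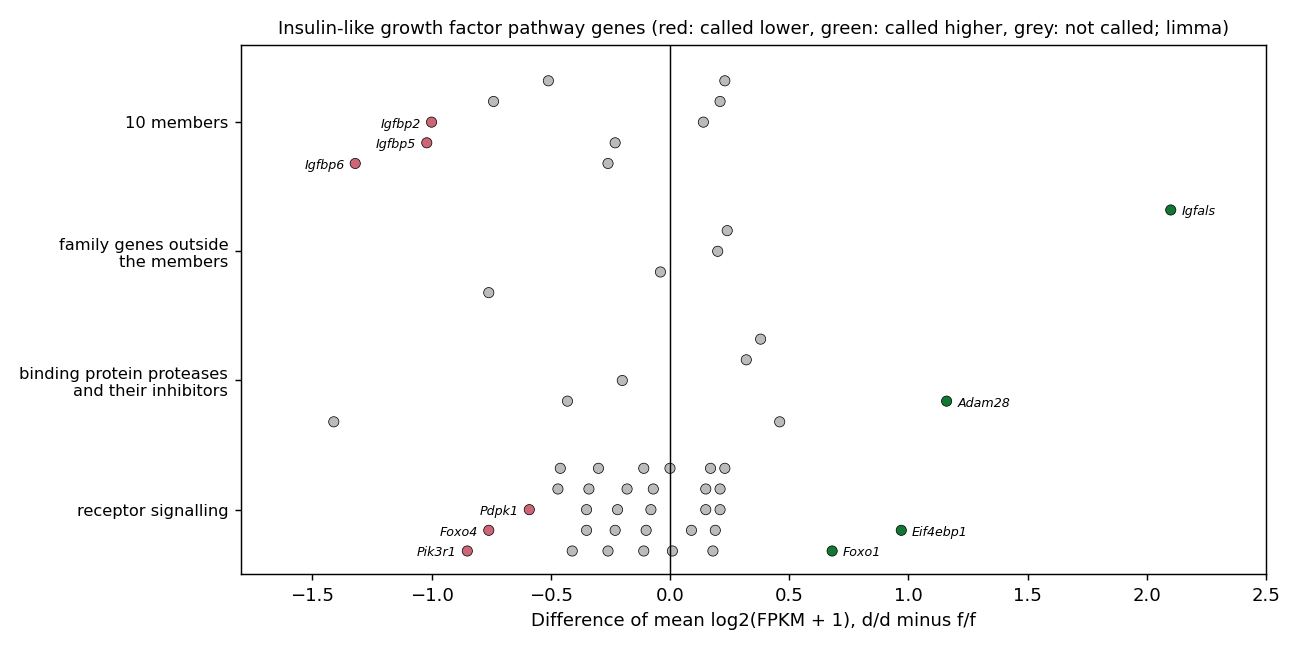
Mean log2(FPKM + 1) in d/d less that in f/f for the 10 genes and of the tested genes of 3 pathway lists, 1 point per gene, spread vertically for legibility. Red points were called lower and green points higher by limma and carry their names, and Igfals (2.10), which passed the filter only through the d/d libraries, lies farthest to the right.

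Markers of cell types moved to different degrees between the same libraries. Over all features, limma called 6.04% higher and 4.97% lower, and 14.2% were lower at an unadjusted p under 0.05. All 8 macrophage markers rose, with summed levels of 339 to 436 FPKM in f/f and 943 to 1259 in d/d. Of 8 stromal fibroblast markers Lum rose and Pdgfra fell, with sums of 3268 to 3511 FPKM in f/f and 2940 to 4454 in d/d. Pdgfra was at 44.6, 39.2 and 43.6 FPKM in the f/f libraries against 19.8, 28.7 and 19.8 in the d/d libraries. Of 6 pericyte markers Rgs5 and Abcc9 fell (sums 168 to 209 and 153 to 201), and of 8 smooth muscle markers Des fell (sums 2191 to 5293 and 2742 to 4486). Of 8 endothelial markers Vwf rose (sums 246 to 309 and 274 to 409), and of 6 epithelial markers Epcam and Cdh1 rose and Krt18 fell (sums 4796 to 6300 and 3183 to 5627). Ovgp1, the oviductal glycoprotein gene that marks this tissue, was between 2651 and 5690 FPKM in all 6 libraries. It made up most of the epithelial sums, which therefore say little of the other epithelial markers. No marker of multiciliated cells (8 tested), mesothelium (6), adipocytes (3), ovarian steroidogenic cells (4), blood (5) or the uterine end (1) was called by limma, and 2 blood markers were lower at an unadjusted p under 0.05 (Hbb-bs and Alas2). Of these uncalled markers, log2 differences were below 0 for 8 of 8 multiciliated, 5 of 6 mesothelial and 3 of 3 adipocyte markers. The same held for 3 of 4 ovarian, 4 of 5 blood and 1 of 1 uterine-end markers. Multiciliated sums were 340, 161 and 97.7 FPKM in the f/f libraries against 32.6, 171 and 116 in the d/d libraries. The highest was f/f replicate 1 and the lowest d/d replicate 1. The remaining libraries of the groups overlapped, so the shared sign of these markers rests on the replicate 1 libraries. Mesothelial sums were 77.0 to 161 FPKM in f/f and 61.3 to 98.4 in d/d. Hoxa13 and Cyp17a1 were listed at 0 in all libraries. The part of cell type content in the falls of Igfbp2, Igfbp5 and Igfbp6 was not tested.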

How the data were processed

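Per the labels' protocols, TRIzol was used for extraction and the TruSeq RNA sample kit for library construction. HISAT2 2.2.1, Cufflinks 2.2.1 and the builds mm9 and mm10 are named per the submitters' processing notes, without roles. The sources used here do not give the annotation, filters or strandedness. The deposited values were read as FPKM, an inference from the authors' use of Cufflinks and from library totals that differ. Reads of overlapping genes cannot be told apart.

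Rows sharing a symbol were summed (114 symbols). Features with a mean of at least 1 FPKM (15438) were compared by limma 3.58.1 (R 4.3.3) on log2(FPKM + 1) (variance trend, genotype as the only term, two-sided), adjusted by Benjamini-Hochberg over all of them, with 0.05 as the threshold. Log2 differences understate changes of low genes. A fold is the mean FPKM in d/d over that in f/f, or the inverse. The fit was tested on simulated data.

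The 10 genes and all lists were chosen with earlier results of these data known. Named beside the 10 were up to 4 called genes per pathway list (or the 2 most abundant), the 3 features nearest in profile to each called gene, Mettl3 and Hoxa10; other names were added after their values were seen. Coordinates and transcripts are from GENCODE M21 (GRCm38) and promoters from RefSeq, where all 10 symbols matched. Depth was inferred from the lowest step of values in single-transcript genes.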

Additional observations from a re-analysis of the deposited data

How the results depend on the processing

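The number of the 10 genes called lower was 3 as reported. Leaving out single libraries gave from 0 (f/f replicate 2 left out) to 4 (d/d replicate 1 left out), with 1 when d/d replicate 3 was left out, and none was called higher under any of the 14 settings. Fits with 5 libraries have fewer residual degrees of freedom. Igfbp2, Igfbp5 and Igfbp6 were lower in d/d under all 14 settings, with adjusted p from 0.00663 to 0.0620. The direction turned for Igf1 without f/f replicate 1 (-0.08, to 0.45 over the other single omissions) and without both replicate 1 libraries (-0.07), for Igf2 without d/d replicate 1 (-0.01, to 0.38) and without both (-0.01), and for Igfbp4 without d/d replicate 1 (-0.10, to 0.30) and without both (-0.09).

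Pathway genes called higher numbered 4 as reported, 2 without the filter on low values, 2 after rescaling to protein-coding genes and 0 to 4 when single libraries were left out, and those called lower numbered 3 as reported and 0 to 4 when single libraries were left out. Over all features, 933 were called higher and 768 lower as reported, 599 and 508 without the filter, and 98 to 926 higher and 71 to 854 lower when single libraries were left out. With the replicate number as a block, 0 of the 10 genes, 0 pathway genes in either direction, 174 features higher and 102 lower were called. Deviations of same-numbered libraries did not go together (r across features -0.22, -0.0585 and 0.0027 for numbers 1 to 3). No library correlated best with its own number. These correlations constrain each other, since deviations were taken from group means of 3 libraries, so they cannot decide whether samples were paired. No label says that the numbers pair the samples, and they were not taken to do so. The fit with the block also has fewer residual degrees of freedom. TMM scaling, quantile normalization, a pseudocount of 0.1 and a fit without the variance trend changed no call among the 10 genes and 6 pathway genes refitted (Igfals, Adam28, Eif4ebp1, Pik3r1, Foxo4 and Foxo1), and the calls of other named genes were not followed across settings. Why calls changed was not tested. The implied depth was similar in all libraries, and its effect on single genes was not measured.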
